A study of Mus musculus with 9 samples.

Results

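The medial prefrontal cortex (mPFC) of stressed mice that ran was compared with that of stressed mice that did not, gene by gene. The comparison used the 3 libraries labelled running model and the 3 labelled CUS model, 6 of the 9 libraries of the series, where CUS is chronic unpredictable stress. The CUS model libraries carry the label Stress and the running model libraries the label exercise, and by the series' design text the running mice had also been exposed to the stress, so stress is what both groups share. The other 3 libraries, labelled control and No-stress, are given beside most values as the level without stress. All labels also carry the terms 4week and week8, whose meaning is not given in the sources used here, and neither are the strain, sex and age of the mice or the form of the running. Of the 35125 genes with a symbol, 14013 reached 0.5 FPKM in 3 or more of the 9 libraries and were analysed. FPKM is the number of sequenced fragments of a gene, scaled to the length of its transcript and to the mapped fragments of the library.

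The prefrontal cortex of the mouse is built of excitatory pyramidal neurons and a smaller number of inhibitory interneurons, with astrocytes, oligodendrocytes, microglia and vessels between them. When cortical neurons fire, calcium entry and the MAP kinase cascade switch on a first wave of genes within minutes, the immediate early genes, many of which encode transcription factors. These in turn control a second wave that acts at synapses and dendrites, while phosphatases of the same wave end the kinase signal. Ribosomal and mitochondrial genes, by contrast, are steadily and highly transcribed in most cells, and their messages are mostly short.

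In the mice that ran, the immediate early genes were the clearest group to rise, led by Egr2, Arc and Fos with log2 differences of 1.67, 1.65 and 1.43. The serotonin receptor gene Htr2a, the cyclins Ccnd1 and Ccnd2, and the guidance receptor gene Robo3 also rose. The neuropeptide gene Grp, the translation repressor gene Eif4ebp1, and many ribosomal and mitochondrial genes fell. The medians of the ribosomal and mitochondrial lists were nearer to 0 without CUS model replicate 3, or with trends of transcript length and GC removed. With these trends removed few of their members passed, as given below. Changes were tested with limma on log2(FPKM + 0.5), where 1 unit is a doubling for well-expressed genes and low genes are understated, with Benjamini-Hochberg adjustment over the 14013 genes. At an adjusted p under 0.05, 1 gene passed, Robo3, which is 0.00714% of the genes. In the text "rose" and "fell" are used of genes at an adjusted p under 0.1; these numbered 928 (6.62%), 297 higher (2.12%) and 631 lower (4.5%) in running than in CUS libraries. Each count of list members that rose or fell is to be read against these 2.12% and 4.5%. Counts at an unadjusted limma p under 0.05 are to be read against 23.5% of all genes. Counts of members above and below 0 are to be read against 42.2% and 57.8%.

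These counts depended on single libraries. At an adjusted p under 0.1 there were 6, 50 and 1 genes without control replicates 1, 2 and 3, and 1, 3092 and 40 without CUS model replicates 1, 2 and 3. Without running model replicates 1, 2 and 3 there were 412, 0 and 3 genes, and the 0 stood beside 2450 genes at an unadjusted limma p under 0.05. Counts of called list members moved with them: no list had more than 2 called members without CUS model replicate 3, and all lists had 0 without running model replicate 2. The direction of each of the 928 differences was the same in all 9 of these reduced sets, but this was largely fixed in advance. Leaving out a control does not change the difference between running and CUS. Running and CUS libraries did not overlap in 290 of the 297 higher and 621 of the 631 lower genes, so leaving out 1 library could not reverse these. The size stayed within 1.5 times in 283 of the 297 higher and 582 of the 631 lower genes. Many genes shared an adjusted p of 0.0776, which 272 genes had, because the adjustment gives tied values to a run of ranked genes.

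CUS model replicate 3 stood apart. Its FPKM values summed to 423257 and those of the other 8 libraries to between 370441 and 393663, and its short transcripts were high and its long ones low. Sequencing depth is unknown from FPKM, so no counting error is given. The labels do not say that the libraries came from separate animals, so p-values measure the spread between these libraries. The defining transcripts of cortex were abundant: Slc17a7, the vesicular glutamate transporter of cortical excitatory neurons, lay between 696 and 768 FPKM, and Gad1, which makes GABA, between 76.6 and 91.7.

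**Figure D1:**
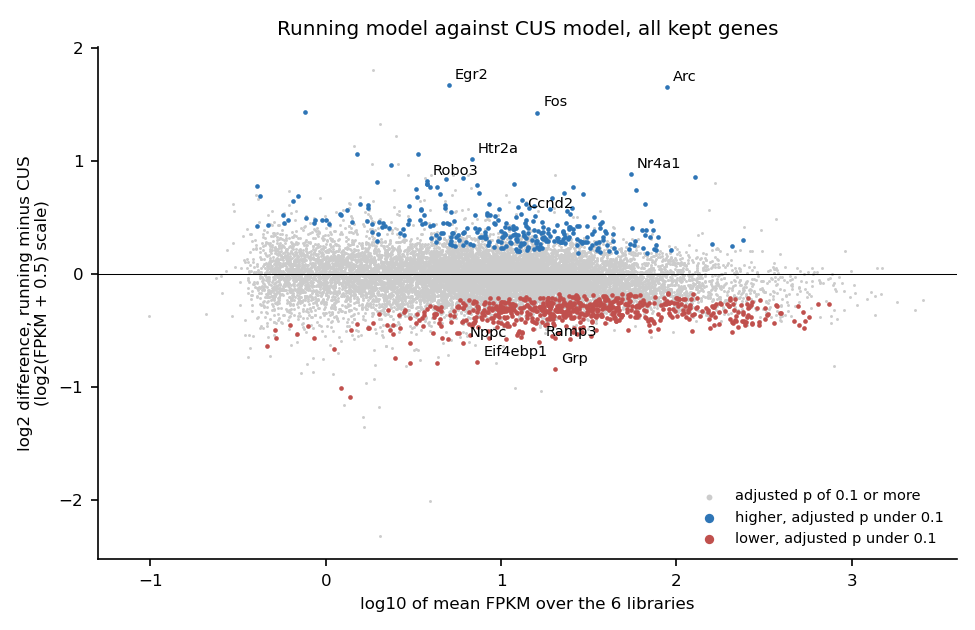
Log2 difference between running and CUS libraries (y axis) against the log10 of the mean FPKM over the 6 libraries (x axis), 1 point per gene. The 297 blue genes were higher and the 631 red genes lower at an adjusted p under 0.1; the largest differences at middle and high level are upward, while the red genes form a broad band of small decreases. A gene listed at 0 in all 6 libraries lies off the log axis.

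Robo3 encodes a receptor of the roundabout family, which steers axons at the midline during development. The gene lies on chromosome 9 from 37416045 to 37433436 (GRCm38.p6). It had 4.84, 4.79 and 5.15 FPKM in the running libraries, 2.81, 2.26 and 2.67 in the CUS libraries, and 3.22, 3.17 and 3.35 in the controls. The 3 groups did not overlap, with running highest and CUS lowest. The log2 difference between running and CUS was 0.82 (SE 0.0870, n = 3 a group, limma adjusted p = 0.0227), and it lay between 0.74 and 0.87 when any library was left out.

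Of 72 axon guidance receptors and ligands, 7 rose and 0 fell, a share to be read against 2.12% of all genes higher. Besides Robo3 these were Robo2, its relative, with a log2 difference of 0.40, the ephrin receptors Epha4, Ephb1 and Ephb3 with 0.33, 0.32 and 0.37, and the semaphorin receptors Plxna4 and Plxnd1 with 0.38 and 0.42. The median of the list was 0.09, where all genes had -0.03, and it was 0.02 without CUS model replicate 3 and 0.06 without running model replicate 2. Once trends with the length and GC of transcripts were taken out of each library, it was 0.03 and 4 members were called. Of 53 clustered protocadherin genes, which give neurons a surface identity, 0 passed at an adjusted limma p under 0.1. At an unadjusted p under 0.05 there were 4 higher and 2 lower, where 23.5% of all genes had such a p.

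Among 30 early transcription factor genes, 16 rose and 0 fell, against 2.12% of all genes higher, and the median log2 difference was 0.60. The running libraries did not overlap with the CUS libraries for 21 members that were higher and 1 that was lower, where 24.9% of all genes showed no overlap (8.99% higher and 15.9% lower). The 16 were Fos, Fosb, Fosl2 and Junb of the AP-1 family, the zinc finger genes Egr1, Egr2, Egr3 and Egr4 with their corepressor Nab2, the orphan nuclear receptors Nr4a1, Nr4a2 and Nr4a3, and Klf10, Ier5, Csrnp1 and Per1. The windows just before the start sites of 3 of them are shown first, to show where a known control element lies in them. Many immediate early genes are switched on through the cyclic AMP response element (CRE), whose half-site is TGACG, or CGTCA when it is read on the other strand. The windows are RefSeq sequences of GRCm38.p6, printed 5′ to 3′ on the strand of the gene, and each ends at the base before a transcription start. Half-sites are in capitals. The Egr4 window is chr6:85513590-85513839 (minus strand), the Nr4a1 window chr15:101266596-101266845 (plus strand) and the Fos window chr12:85473640-85473889 (plus strand).
Egr4: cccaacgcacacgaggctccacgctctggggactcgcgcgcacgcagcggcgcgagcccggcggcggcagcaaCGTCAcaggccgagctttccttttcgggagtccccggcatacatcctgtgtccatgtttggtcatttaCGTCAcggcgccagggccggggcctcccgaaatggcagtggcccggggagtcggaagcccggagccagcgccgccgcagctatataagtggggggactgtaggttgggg
Nr4a1: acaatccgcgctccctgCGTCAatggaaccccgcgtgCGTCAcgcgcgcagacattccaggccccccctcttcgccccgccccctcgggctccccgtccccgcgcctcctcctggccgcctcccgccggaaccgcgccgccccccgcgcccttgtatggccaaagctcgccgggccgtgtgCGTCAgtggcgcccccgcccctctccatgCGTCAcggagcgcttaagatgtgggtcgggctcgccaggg
Fos: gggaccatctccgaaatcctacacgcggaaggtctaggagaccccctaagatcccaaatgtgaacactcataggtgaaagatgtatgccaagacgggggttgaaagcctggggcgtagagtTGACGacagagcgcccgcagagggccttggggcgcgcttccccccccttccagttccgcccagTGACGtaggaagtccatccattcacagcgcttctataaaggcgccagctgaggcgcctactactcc

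Egr4 had 2 half-sites in its 250 bases, Nr4a1 had 4 and Fos had 2, and none of the 3 windows held the full palindrome of the CRE. Of the windows of 2 more of these genes, which are not printed, that of Nr4a3 held 4 half-sites and that of Fosl2 held 0. Of the 24 early transcription factor genes with a window in the RefSeq table, 18 held at least 1 half-site on either strand (75.0%), against 3291 of 11159 analysed genes with a window (29.5%). The full palindrome TGACGTCA, which contains the half-site on both strands, was in 2 of the 24 (8.33%, against 2.96%), and the CArG box of serum response factor was in 2 (8.33%, against 1.48%). In the lists of effectors and of MAP kinase inhibitors described next, 10 of 21 (47.6%) and 6 of 15 (40.0%) windows held a half-site, and 4 (19.0%) and 3 (20.0%) the full palindrome. The windows of the early transcription factor genes had a mean GC content of 65.3%, against 59.7%. A match describes the letters of a window and not binding, and some genes have more than 1 window. Over genes with a single window the shares were 14 of 20 (70.0%) and 26.9%.

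Egr2, the zinc finger gene with the largest difference of the list, had 6.11, 9.61 and 8.0 FPKM in running, 1.73, 2.47 and 2.15 in CUS, and 6.89, 2.5 and 6.66 in control libraries. Each running library exceeded each CUS library, and control replicate 2 lay just above the CUS range while the other controls lay within the running range. The log2 difference was 1.67 (SE 0.299, limma adjusted p = 0.0776). Fos, the DNA-binding partner of Jun proteins in AP-1, had 21.7, 24.3 and 24.3 FPKM in running, 11.4, 8.75 and 5.86 in CUS, and 23.6, 12.1 and 23.03 in control libraries. Its log2 difference was 1.43 (SE 0.254, limma adjusted p = 0.0776), again with no overlap between running and CUS and with control replicate 2 as the lowest control.

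The nuclear receptor gene Nr4a1 had 67.4, 70.3 and 75.9 FPKM in running, 36.8, 39.6 and 38.5 in CUS, and 66.3, 44.1 and 73.6 in control libraries (log2 difference 0.89, SE 0.148). Egr4 had 31.1, 34.6 and 31.5 FPKM in running, 18.6, 16.9 and 20.9 in CUS, and 32.4, 21.5 and 27.3 in control libraries (log2 difference 0.77, SE 0.128). Both stood at an adjusted limma p of 0.0776, and their CUS libraries lay close together below every other library. Egr1, the member of its family with the most transcript, averaged 164 FPKM in running, 90.5 in CUS and 131 in control libraries, a log2 difference of 0.85. Fosl2, Csrnp1, Junb, Fosb, Nr4a2 and Per1 had differences between 0.71 and 0.85, Nr4a3, Klf10 and Egr3 of 0.62 each, and Nab2 and Ier5 of 0.36 and 0.28.

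Of the other 14 early transcription factors, 10 had a log2 difference above 0 and 4, Jund, Klf6, Cebpb and Myc, one between -0.18 and -0.12. Npas4, a factor specific to neurons and tied to calcium entry, had 15.8, 11.6 and 14.1 FPKM in running, 19.5, 11.4 and 5.71 in CUS, and 28.7, 21.2 and 21.7 in control libraries. Its running and CUS libraries overlapped, its log2 difference of 0.32 had an adjusted limma p of 0.574, and the controls were above both groups. Ier2 and Btg2 were similar to each other, with differences of 0.58 and 0.72 that did not pass (adjusted p = 0.103 and 0.133). The median of the whole list was 0.62 once the trends with length and GC of transcripts were taken out of each library, when 11 members were called, and 0.46 without CUS model replicate 3. The number called was 19 without CUS model replicate 2, 2 without CUS model replicate 3 and 0 without running model replicate 2. The summed FPKM of blood cell markers also had a higher range in running (974.5 to 1241) than in CUS (684 to 1043) and control libraries (494 to 883), and its part in these differences was not tested.

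Among 30 activity-induced effector genes, whose products act on synapses, signalling and RNA stability, 9 rose and 0 fell, where 2.12% of all genes rose, with a list median of 0.21. Arc, which removes AMPA receptors from synapses, lies on chromosome 15 from 74669081 to 74672570 (GRCm38.p6). It had 122.5, 136.7 and 138.9 FPKM in running, 42.3, 57.0 and 30.3 in CUS, and 115.0, 49.3 and 121.5 in control libraries. Its log2 difference was 1.65 (SE 0.307, limma adjusted p = 0.0776), and control replicate 2 lay inside the CUS range. Sik1, a salt-inducible kinase, had 3.6, 5.46 and 5.13 FPKM in running, 2.00, 2.18 and 1.76 in CUS, and 3.93, 1.99 and 3.94 in control libraries, a difference of 1.06. Arl4d, Trib1 and Tiparp had differences of 0.80, 0.79 and 0.77, Gadd45b and the inducible prostaglandin synthase Ptgs2 of 0.48 and 0.47, and Synpo and Kcna1 of 0.33 and 0.29. Bdnf, a neurotrophin that neuronal activity induces, had 11.2, 9.83 and 11.9 FPKM in running, 8.23, 9.63 and 14.4 in CUS, and 11.0, 9.39 and 9.38 in control libraries, a difference of 0.06 (SE 0.164, limma adjusted p = 0.848). Homer1, a synaptic scaffold gene, had a difference of 0.46 (adjusted p = 0.108).

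Of 17 feedback inhibitors of the MAP kinase cascade, 6 rose and 0 fell, with a median of 0.19. These were the dual-specificity phosphatases Dusp5, Dusp4, Dusp1 and Dusp6, which switch off ERK and related kinases, and Spry4 and Errfi1, which act on growth factor receptors. Dusp5 had 5.83, 7.12 and 6.08 FPKM in running, 3.56, 2.88 and 3.51 in CUS, and 5.48, 3.84 and 6.03 in control libraries, a log2 difference of 0.84 (SE 0.146; adjusted p by limma, 0.0776). The CUS libraries again lay below the other 6. Dusp4, Dusp1, Dusp6, Spry4 and Errfi1 had differences of 0.76, 0.72, 0.58, 0.52 and 0.28. In bulk tissue, fewer cells that express a gene and less RNA per cell cannot be told apart, here and in what follows.

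**Figure D2:**
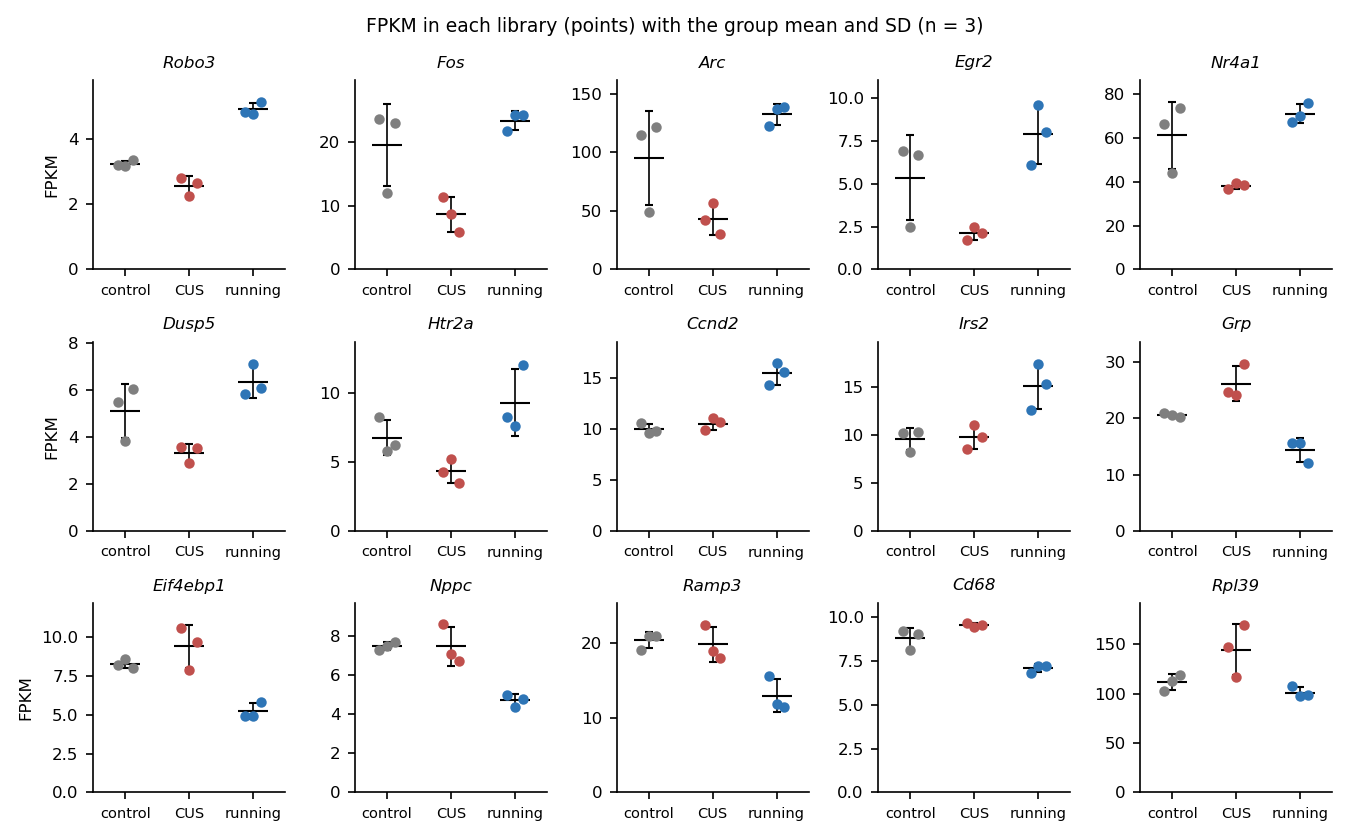
FPKM (y axis, from 0) of 15 genes in each library, with points for libraries and bars for the group mean and SD (n = 3 a group; grey control, red CUS, blue running). Running and CUS points do not overlap for any of the 15 genes, and for Fos, Arc, Egr2, Nr4a1 and Dusp5 control replicate 2 is low, near the CUS points, while the other controls are near the running points.

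Some genes that glucocorticoids induce were also higher in running. Glucocorticoids are the stress hormones of the adrenal cortex, and they act through the receptors Nr3c1 and Nr3c2. Of 26 such genes, 5 rose, 0 fell and 23 had a difference above 0, where 42.2% of all genes did, with a median of 0.29. Sgk1, a kinase that controls ion channels, had 30.1, 30.8 and 27.2 FPKM in running, 20.0, 20.2 and 20.5 in CUS, and 29.2, 21.2 and 30.8 in control libraries. Its 3 CUS libraries were within 1 FPKM of each other and below all others, and the log2 difference was 0.53 (SE 0.116, limma adjusted p = 0.0776). Per1 had a difference of 0.71, Ddit4, an inhibitor of mTOR, of 0.51, the transcription factor Klf9 of 0.30 and Errfi1 of 0.28. Per1 and Errfi1 stand in the lists above as well. Other members known as sensitive hormone targets did not pass: Fkbp5 had 13.0, 15.2 and 14.7 FPKM in running, 7.35, 11.7 and 10.5 in CUS, and 10.8, 8.26 and 13.2 in control libraries, without overlap of running and CUS (log2 difference 0.53, limma adjusted p = 0.120), and Tsc22d3 had a difference of 0.50 (adjusted p = 0.107). Mt1, a metallothionein, had a difference of -0.09 (adjusted p = 0.764).

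The receptors themselves did not pass. Nr3c1 averaged 14.2 FPKM in running and 13.6 in CUS libraries, a log2 difference of 0.06 (SE 0.0785; adjusted p by limma, 0.675), and Nr3c2 had 0.07. Of 12 receptors and cochaperones, 0 passed at an adjusted p under 0.1. At an unadjusted p under 0.05, 2 were higher, where 23.5% of all genes had such a p. Of 21 clock genes, Per1 and Bhlhe40, both repressors of the clock, rose, and Dbp, an output gene of the clock, fell. Bhlhe40 had 68.0, 75.2 and 71.8 FPKM in running, 48.7, 60.0 and 55.5 in CUS, and 51.1, 41.7 and 45.2 in control libraries (log2 difference 0.39, limma adjusted p = 0.0776). Running libraries were above both other groups. Dbp averaged 52.7, 64.4 and 55.7 FPKM in the same order, a difference of -0.29, which was -0.16 with the length and GC trend removed. At what hour tissue was collected is not given in the sources used here.

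Htr2a, the 5-HT2A serotonin receptor of cortical pyramidal neurons, was the only member of 21 serotonin and catecholamine receptors to pass. It lies on chromosome 14 from 74640874 to 74706859 (GRCm38.p6). It had 8.27, 7.57 and 12.04 FPKM in running, 4.24, 5.19 and 3.50 in CUS, and 8.22, 5.81 and 6.25 in control libraries. The highest CUS library stayed below the lowest control and the lowest running library. The log2 difference was 1.01 (SE 0.182, limma adjusted p = 0.0776), and it lay between 0.82 and 1.14 when any library was left out.

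Among genes of neuronal excitability and synapses, few passed and their differences were small. Of 36 voltage-gated potassium channel genes, 30 were above 0, where 42.2% of all genes were, and 6 rose, with a median of 0.16. Among them Kcnh1, Kcna1, Kcna2 and Kcnq3 had log2 differences of 0.34, 0.29, 0.28 and 0.24. Kcnh1 had 14.5, 14.4 and 16.5 FPKM in running, 12.3, 12.6 and 10.7 in CUS, and 14.8, 14.01 and 13.4 in control libraries, and its running and CUS libraries did not overlap. After removal of the length and GC trend the list median was 0.10 and 2 members were called, and the values of Kcnh1 and Kcnq3 were 0.20 and 0.08. Of 32 sodium and calcium channel genes Scn8a alone rose, with a difference of 0.27.

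At the presynaptic side 5 of 37 active zone genes rose, with a median of 0.10. These were the release-site scaffolds Rims1, Rims3 and Rims4 with log2 differences of 0.28, 0.29 and 0.32, complexin 2 (Cplx2) with 0.30 and the vesicle protein gene Sv2c with 0.65. Cplx2 had 260, 278 and 260 FPKM in running, 232, 212 and 202 in CUS, and 237, 249 and 233 in control libraries. The 3 groups were ordered with running highest and CUS lowest, and none of the 3 overlapped. At the postsynaptic side the NMDA receptor subunits Grin2a and Grin2b rose by 0.29 and 0.46, and the scaffold genes Shank2 and Dlgap2 by 0.38 and 0.32, among 17 ionotropic glutamate receptors and 28 scaffolds. Of 13 GABA-A receptor subunits 0 passed at an adjusted p under 0.1 or at an unadjusted limma p under 0.05. With the length and GC trend removed 0 members of the presynaptic, scaffold and glutamate receptor lists were called, and the median of the glutamate receptors changed from 0.03 to -0.06.

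Of 26 neuropeptide precursor genes, 15 had a difference below 0, a share like that of all genes, and 4 fell (Grp, Nppc, Tac1 and Cort) and 1, the granin gene Chgb, rose, beside a median of -0.08, which was -0.03 without CUS model replicate 3, -0.02 without running model replicate 2 and 0.03 with the length and GC trend removed. Grp encodes gastrin-releasing peptide, a bombesin-like peptide of cortical neurons. It had 15.7, 15.6 and 11.99 FPKM in running, 24.7, 24.2 and 29.7 in CUS, and 20.9, 20.6 and 20.3 in control libraries. The groups did not overlap, with controls between the others. The log2 difference was -0.84 (SE 0.106, limma adjusted p = 0.0574), the second smallest p of all genes.

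Nppc, which encodes C-type natriuretic peptide, had 4.97, 4.35 and 4.76 FPKM in running, 8.58, 7.09 and 6.69 in CUS, and 7.25, 7.49 and 7.69 in control libraries, a log2 difference of -0.61 (SE 0.0925; adjusted p by limma, 0.0776). Its running libraries were below all 6 others, and control and CUS libraries overlapped. Cort, the precursor of cortistatin in interneurons, had 12.4, 12.6 and 13.4 FPKM in running, 15.9, 16.6 and 16.8 in CUS, and 17.2, 14.4 and 16.6 in control libraries, a difference of -0.35. Tac1, the substance P precursor, also had -0.35. With the length and GC trend removed Cort had -0.21 and Tac1 -0.20. Of 28 peptide receptors and their partners, Ramp3, which turns the calcitonin-like receptor into a receptor for adrenomedullin, fell. It had 15.6, 11.9 and 11.5 FPKM in running, 22.5, 19.0 and 18.1 in CUS, and 19.1, 21.03 and 21.04 in control libraries, a difference of -0.60 (SE 0.114, limma adjusted p = 0.0776).

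Genes of growth control changed in both directions. Of the 3 D-type cyclins, which carry growth signals to the cell cycle, Ccnd1 and Ccnd2 rose, and Ccnd3 had a difference of -0.10 that did not pass (limma adjusted p = 0.642). Ccnd2, on chromosome 6 from 127125162 to 127152188 (GRCm38.p6), had 14.2, 16.4 and 15.6 FPKM in running, 9.85, 11.1 and 10.6 in CUS, and 10.5, 9.58 and 9.78 in control libraries (log2 difference 0.53, SE 0.0730, limma adjusted p = 0.0657). Ccnd1 had 16.8, 17.3 and 19.3 FPKM in running, 12.1, 12.3 and 13.7 in CUS, and 15.3, 14.4 and 12.7 in control libraries (log2 difference 0.47). For Ccnd1 and Ccnd2 the running libraries were above both other groups. Cdkn2d, an inhibitor of cyclin-dependent kinases, fell by 0.31 on the log2 scale and by 0.19 with the length and GC trend removed, and the median of the 15 cell cycle entry genes was -0.02.

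Of 37 insulin and mTOR signalling genes, Irs2, Ddit4 and Sesn3 rose and Eif4ebp1 fell. Eif4ebp1 encodes 4E-BP1, which blocks cap-dependent translation until mTOR phosphorylates it, and lies on chromosome 8 from 27260327 to 27275656 (GRCm38.p6). It had 4.95, 4.93 and 5.82 FPKM in running, 10.6, 7.90 and 9.71 in CUS, and 8.20, 8.57 and 8.01 in control libraries. The running libraries were below all others, and the log2 difference was -0.78 (SE 0.104, limma adjusted p = 0.0630). Irs2, an adaptor of the insulin receptor, had 12.6, 17.3 and 15.3 FPKM in running, 8.58, 11.0 and 9.73 in CUS, and 10.2, 8.25 and 10.3 in control libraries, a difference of 0.59. Sesn3 and Ddit4, both inhibitors of mTOR complex 1, had differences of 0.52 and 0.51. Pfkfb3, which sets the pace of glycolysis, had 10.7, 10.6 and 10.5 FPKM in running, 6.64, 7.90 and 8.49 in CUS, and 7.83, 7.41 and 7.15 in control libraries, a difference of 0.45. Of 28 glycolysis and lactate genes 0 passed. At an unadjusted limma p under 0.05 there were 1 higher and 6 lower, where 23.5% of all genes had such a p. Of 29 neurotrophin and growth factor genes, Vegfc alone passed, with a difference of -0.35, and the BDNF receptor gene Ntrk2 had 0.19 (adjusted p = 0.132).

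Ribosomal protein genes had small differences of 1 direction. All 82 cytosolic ribosomal protein genes had a log2 difference below 0, where 57.8% of all genes did, and 34 fell, against 4.5% of all genes lower. The list median was -0.36. Rpl39 had 107, 97.0 and 98.3 FPKM in running, 147, 117 and 169 in CUS, and 103, 113 and 118 in control libraries, a difference of -0.50 (SE 0.114, limma adjusted p = 0.0776). Running and CUS libraries did not overlap, CUS model replicate 3 was highest, and running libraries overlapped with controls. Rpl10 had 293.5, 294.1 and 286.1 FPKM in running, 339.4, 362 and 417 in CUS, and 306.9, 311.2 and 343.9 in control libraries, a difference of -0.35. These genes have many near-identical pseudogene copies, among which reads can be split, so values of single members are uncertain. Without CUS model replicate 3 the list median was -0.22 and 0 members were called, without CUS model replicate 2 74 were called, and after removal of the length and GC trend the median was -0.23 with 1 member called.

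Mitochondrial genes showed the same shape. All 78 mitochondrial ribosomal protein genes were below 0 and 17 fell (median -0.25), all 37 nuclear subunits of respiratory complex I were below 0 and 12 fell (median -0.32), and 48 of 50 subunits of complexes II to V were below 0 and 14 fell (median -0.28). Mrpl46, a protein of the large mitochondrial subunit, had 15.9, 15.1 and 15.0 FPKM in running, 19.6, 19.9 and 23.7 in CUS, and 18.1, 17.2 and 18.3 in control libraries, a log2 difference of -0.44 (SE 0.0754). Ndufs7, a core subunit of complex I, had 93.1, 83.9 and 86.0 FPKM in running, 113, 107 and 119 in CUS, and 93.4, 97.2 and 107 in control libraries, a difference of -0.37. Surf1, an assembly factor of cytochrome oxidase, had 37.9, 38.3 and 36.5 FPKM in running, 47.5, 46.4 and 50.7 in CUS, and 40.6, 39.0 and 42.2 in control libraries, a difference of -0.35. For each of the 3 genes the running and CUS libraries did not overlap, and all 3 had an adjusted limma p of 0.0776. Without CUS model replicate 3 the medians of the 3 lists were -0.15, -0.20 and -0.19, and after removal of the length and GC trend they were -0.14, -0.17 and -0.16, with 2, 0 and 0 members called.

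Other housekeeping lists moved less. Of 46 proteasome genes, 12 fell and 0 rose, with a median of -0.19. Psmg2, an assembly chaperone, had a log2 difference of -0.54 and Psmb10, a subunit of the immunoproteasome, of -0.33. Of 75 mitochondrial import and carrier genes 8 fell, Timm13 and Timm44 of the inner membrane among them, and Slc25a25 rose (median -0.18). Of 28 RNA polymerase subunits 7 fell (median -0.10), and of 43 spliceosomal genes 7 fell and Lsm11, of the histone mRNA particle, rose (median -0.16). Of 31 antioxidant enzymes, 7 fell: Gpx7, Prdx4, Txn1, Gstp1, Gsto1, Sod1 and Txn2, with differences between -0.74 and -0.24 and a list median of -0.19. Without CUS model replicate 3 the medians were -0.12 for the proteasome, -0.11 for import, -0.09 for the spliceosome and -0.12 for antioxidants. After removal of the length and GC trend the 5 medians, in the order given here, were -0.08, -0.08, -0.05, -0.07 and -0.11.

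**Figure D3:**
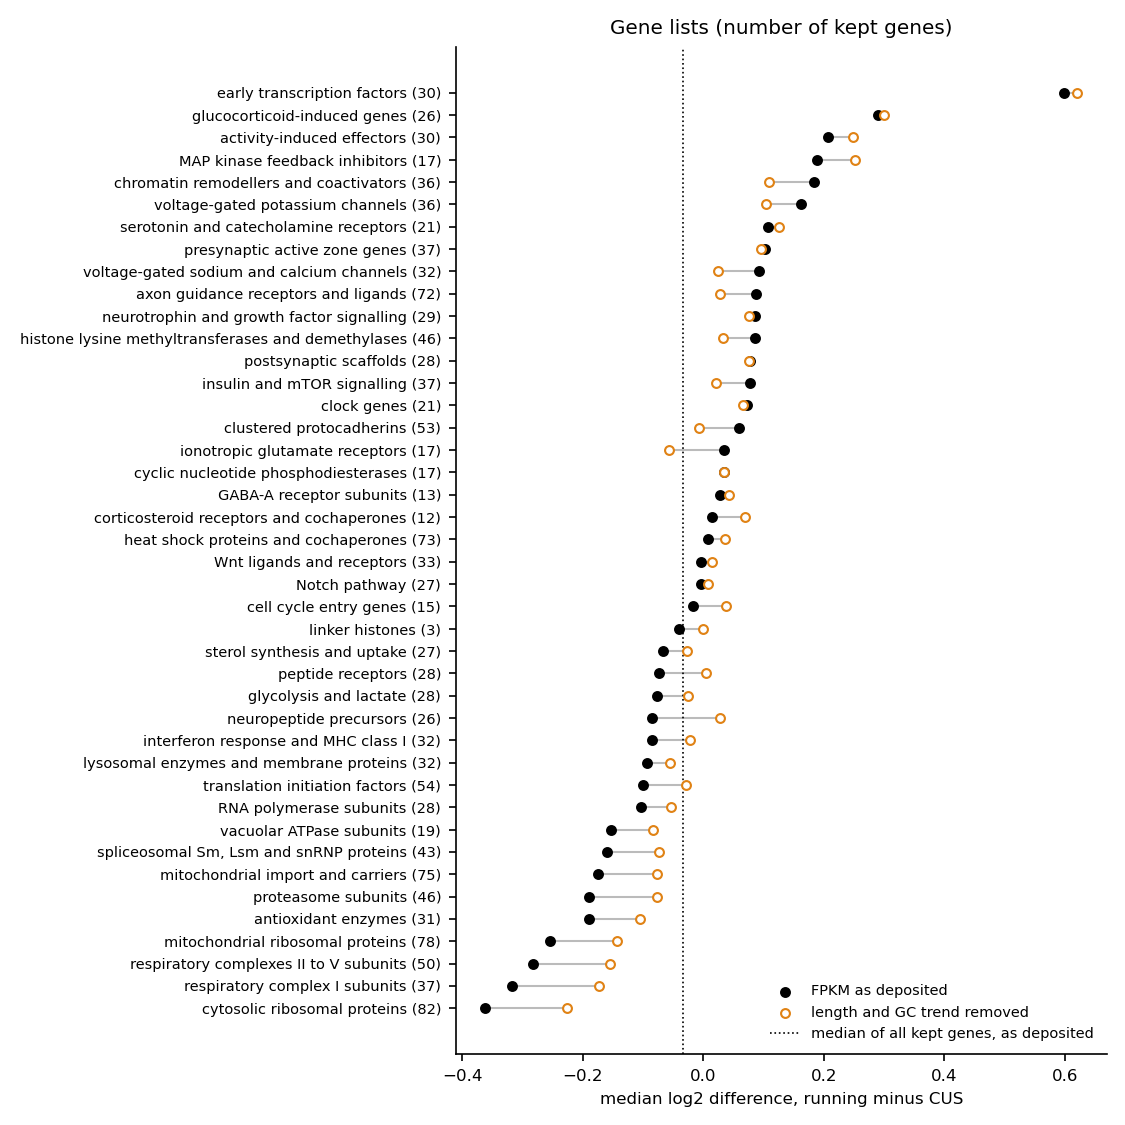
Median log2 difference between running and CUS libraries (x axis) of each gene list other than cell type markers, with the number of genes in brackets, as deposited (black) and with the length and GC trend removed (orange rings). Early transcription factors and glucocorticoid-induced genes are at the top (0.60 and 0.29), with medians of 0.62 and 0.30 once the trend is removed, while the ribosomal and mitochondrial lists at the bottom move toward 0 with the trend removed; the dotted line is the median of all genes, -0.03.

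**Figure D4:**
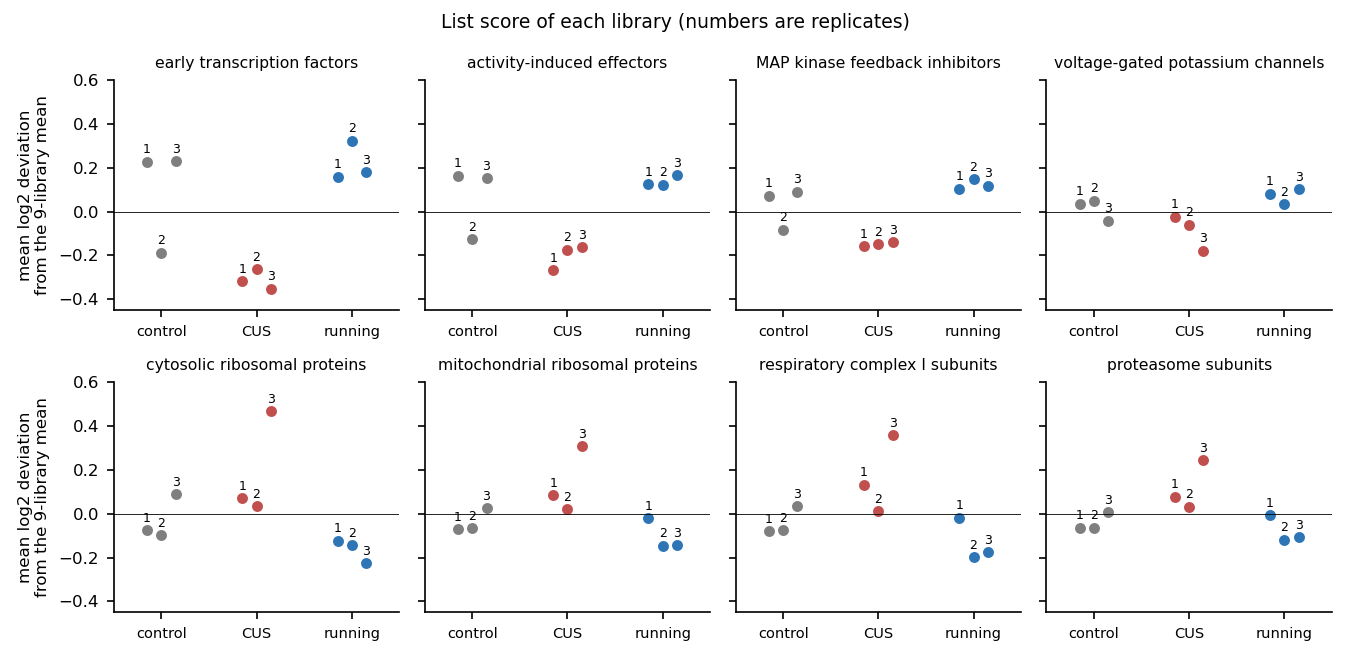
Score of 8 lists in each library (y axis, mean log2 deviation of the list's genes from their 9-library mean; numbers are replicates, which do not pair libraries). In the activity lists the CUS libraries lie close together below the running libraries, and control replicate 2 lies near them; in the ribosomal, mitochondrial and proteasome lists CUS model replicate 3 is far above the other 8, at 0.469 for cytosolic ribosomal proteins.

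The direction of change followed transcript length. Genes were put into 5 groups of like size by length. In the group with the shortest transcripts, of up to 1096 bases, 0.759% were higher and 10.8% lower at an adjusted p under 0.1, and the median log2 difference was -0.15. In the group with the longest, from 3874 bases, 4.88% were higher and 0.253% lower, and the median was 0.08. The genes that rose had a median length of 3711 bases and those that fell 1142. The slope was steepest in CUS model replicate 3, whose median deviation went from 0.177 in the shortest to -0.119 in the longest group. The other CUS libraries went from 0.0612 to -0.0202 and from 0.00228 to -0.00138, and the running libraries went the opposite way. Control replicates 1 and 2 went the same way as running, from -0.0329 to 0.0148 and from -0.0282 to 0.0286. Control replicate 3 went from 0.0263 to -0.0081. The part of RNA integrity or library preparation in this was not tested.

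**Figure D5:**
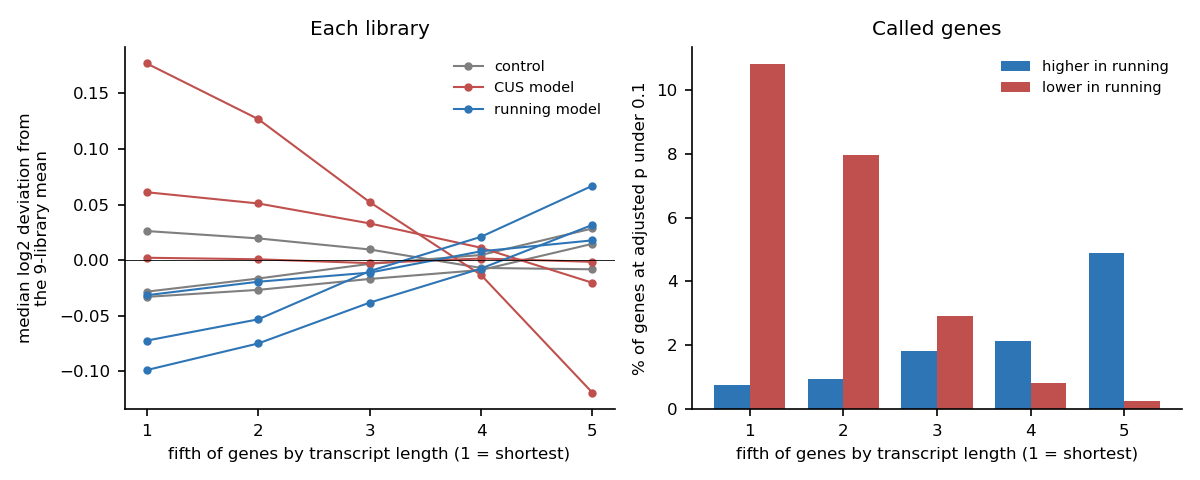
Left, median log2 deviation from the 9-library mean (y axis) in each of 5 groups of genes by transcript length (x axis, 1 is the shortest), 1 line per library; right, percent of genes in each group called higher (blue) or lower (red) in running at an adjusted p under 0.1. CUS model replicate 3 is the steep red line, and lower calls shrink from 10.8% to 0.253% as length grows.

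Once these trends were taken out of each library, 233 of 13830 genes (1.68%) were called, 157 higher (1.14%) and 76 lower (0.55%), so that more genes rose than fell. Of these, 196 (84.1%) were also among the 928, of which they are 21.1%: 129 of the higher and 67 of the lower. The genes that rose in the deposited values had a median of 0.37 and one of 0.36 with the trend removed, and those that fell had -0.32 and -0.21. Robo3, Ccnd2, Grp and Eif4ebp1 had differences of 0.75, 0.66, -0.72 and -0.73 with the trend removed, each with an adjusted limma p of 0.0496. Scaling moved the balance of directions as well: 32.0% of the called genes were higher in FPKM as deposited, 78.8% of 637 after rescaling to TPM (502 higher and 135 lower), 53.4% after quantile normalization and 43.7% after median centring.

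Some regulators of chromatin rose. Of 46 histone lysine methyltransferases and demethylases, 2 rose and 1 fell. Setd7, a lysine methyltransferase, had 20.7, 21.1 and 21.1 FPKM in running, 16.1, 17.0 and 14.5 in CUS, and 18.4, 18.7 and 17.6 in control libraries, a log2 difference of 0.39 (SE 0.0646; adjusted p by limma, 0.0776) that was 0.26 with the length and GC trend removed. None of the 3 groups overlapped. Kdm6b, which removes methyl groups from lysine 27 of histone H3 and is itself induced by activity, had a difference of 0.61, and Setd6 one of -0.34, among 46 methyltransferases and demethylases. Of 36 chromatin remodellers and coactivators 34 were above 0, where 42.2% of all genes were, and 4 rose. Among these were Tet3, Arid1b and Chd4 with differences of 0.45, 0.32 and 0.31. The list median was 0.18, and it was 0.11 without CUS model replicate 3 and 0.11 with the trend removed. With the trend removed 1 member of each of these chromatin lists was called, and Setd6, Arid1b and Chd4 had -0.21, 0.17 and 0.18.

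In the Notch pathway, Hes5, a repressor that Notch induces in astrocytes and progenitors, had 8.81, 8.03 and 8.57 FPKM in running, 13.9, 10.8 and 14.02 in CUS, and 8.14, 8.62 and 6.38 in control libraries. The CUS libraries stood above the other 6, and the log2 difference was -0.57 (SE 0.120, limma adjusted p = 0.0776). Its relative Hes6 had -0.51 and the coactivator gene Maml3 0.61, while the median of the 27 pathway genes was 0.00. Pde7b, a phosphodiesterase of cyclic AMP, had 5.17, 5.19 and 6.91 FPKM in running, 3.97, 3.74 and 4.4 in CUS, and 6.60, 6.69 and 6.64 in control libraries (difference 0.45).

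Further genes with the smallest p or the largest differences were named by rule. Among those that rose, Hs6st3, which modifies heparan sulfate, and Ksr2, a scaffold of the MAP kinase cascade, had log2 differences of 1.06 and 0.97 at low levels, 2.19 against 0.827 and 3.22 against 1.49 FPKM. Prkca, a protein kinase C, had 30.9 against 22.9 FPKM, Anxa11 28.4 against 21.2, and the channel-family gene Ano3 22.6 against 17.3. Among those that fell, Klhdc9, Msln and Clec2d had differences of -0.78, -0.67 and -0.61, and Wfdc18 one of -0.79 that was -0.50 without CUS model replicate 3. Rnaset2a fell by 0.52 on the log2 scale and has a near-identical copy in the genome, so its value is uncertain. Ccdc12, Cnpy2, Plp2, Ninj1, Ssbp2, Ppox, Dusp28 and Lsm4 fell by 0.33 to 0.46 on that scale, with FPKM means in running between 8.91 and 32.5. With the length and GC trend removed Ccdc12, Cnpy2 and Lsm4 had -0.26, -0.20 and -0.22, and the others between -0.34 and -0.28. At least Cnpy2 then no longer passed (limma adjusted p = 0.121).

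Markers of cell types were checked in 14 lists. The summed FPKM of 22 microglia and macrophage markers was 332, 354 and 351 in running, 392, 361 and 462 in CUS, and 352, 357 and 390 in control libraries. Of these 22, 18 were below 0 and 2 fell, Cd68 and Gpr34, with a list median of -0.18 that was -0.10 without CUS model replicate 3 and -0.31 without CUS model replicate 2. Cd68, a lysosomal protein of phagocytes, had 6.81, 7.21 and 7.18 FPKM in running, 9.66, 9.44 and 9.51 in CUS, and 9.18, 8.08 and 9.03 in control libraries (log2 difference -0.41, SE 0.0670, limma adjusted p = 0.0776). Its running libraries were below the other 6. Gpr34 had a difference of -0.42, and -0.27 without CUS model replicate 3. The resting-state marker P2ry12 had a difference of -0.21 (adjusted p = 0.159) and Cx3cr1 one of -0.06.

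Of 17 excitatory neuron markers, Rasgrf2 and Nr4a2 rose and Fezf2, a marker of deep-layer projection neurons, fell with a log2 difference of -0.35. Their summed FPKM lay between 3327 and 3517 in running, between 3180 and 3359 in CUS and between 3319 and 3461 in control libraries, and the ranges overlapped. Few members of other lists rose. Of 15 inhibitory neuron markers Gad2 alone rose, by 0.19, and it had 0.11 with the length and GC trend removed. Of 16 astrocyte markers the glutamate transporter Slc1a2 alone rose, by 0.24. Of 12 oligodendrocyte precursor markers Tnr and Gpr17 rose, by 0.43 and 0.44. In each of these lists 0 fell and 5 were below 0, and the list medians were 0.05, 0.06 and 0.03. Col4a2 of basement membranes rose by 0.31, and it had 0.20 with the trend removed. Of 19 myelin, 16 endothelial and 12 mural cell markers 0 passed at an adjusted limma p under 0.1. At an unadjusted p under 0.05 there were 2, 3 and 2, where 23.5% of all genes had such a p. Of 18 meningeal fibroblast and matrix markers 14 were below 0, with a list median of -0.22 that was -0.38 without running model replicate 2 and -0.07 without running model replicate 3, and their summed FPKM was 469, 993 and 561 in running, 942, 797 and 1627 in CUS, and 914, 973 and 530 in control libraries; their part in other results was not tested. Of 8 olfactory, 9 thalamic and 4 choroid plexus markers that were high enough to analyse 0 passed, with 1, 0 and 0 at an unadjusted p under 0.05. Control replicate 3 stood apart in tissue markers. Its choroid plexus markers summed to 217.6 FPKM, against 9.98 to 43.66 in the other libraries. Its myelin markers summed to 1380 FPKM, against 570 to 834. The part of this in the control values given here was not tested.

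Of 8 blood cell markers high enough to analyse, 6 were above 0, 4 of them with no overlap between running and CUS libraries, and 1 rose. Of all genes, 42.2% were above 0 and 8.99% were higher with no overlap. The list median was 0.35, among the highest of all lists, and it was 0.49 with the length and GC trend removed and 0.27 without CUS model replicate 3. In running against control it was 0.66, and in CUS against control 0.24. The summed FPKM of these markers, mostly haemoglobin, was 974.5, 1241 and 1088 in running, 759, 1043 and 684 in CUS, and 653, 494 and 883 in control libraries, where running and CUS overlapped and control replicate 2 was lowest. Alas2, which makes haem in red cell precursors, rose, with 3.33, 4.36 and 5.05 FPKM in running, 2.85, 3.19 and 2.03 in CUS, and 1.88, 1.68 and 2.35 in control libraries (log2 difference 0.57, limma adjusted p = 0.0998). The haemoglobin gene Hba-a1, which has a near-identical copy and was singled out once its values were known, had 367, 506 and 405 FPKM in running, 278, 419 and 234 in CUS, and 265, 189 and 333 in control libraries, a difference of 0.49 that did not pass (adjusted p = 0.228) and was 0.31 without CUS model replicate 3. The part of blood content in the results above, the activity genes included, was not tested.

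The running libraries can also be set beside the unstressed controls, with the same running libraries in both contrasts. Control replicate 3, with its high choroid plexus and myelin markers, is among these controls. At an adjusted limma p under 0.1, 33 genes (0.235%) differed between running and control, and 1 gene (0.00714%) between CUS and control. For Egr2, Fos and Arc the log2 differences from control were 0.61, 0.31 and 0.58 in running (adjusted p = 0.457, 0.670 and 0.493) and -1.06, -1.12 and -1.07 in CUS. For Nr4a1 and Dusp5 they were 0.24 and 0.30 in running and -0.64 and -0.54 in CUS, and for Htr2a 0.42 and -0.59. None of these differences from control passed in either group. The activity lists had medians of 0.22, 0.06 and 0.12 in running against control, for transcription factors, effectors and MAP kinase inhibitors, and of -0.38, -0.21 and -0.14 in CUS against control.

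Other genes differed from control in running, with smaller values in CUS; the difference between these contrasts is the running against CUS value already given. Ccnd2 had log2 differences from control of 0.60 in running (limma adjusted p = 0.0265) and 0.07 in CUS. Nppc had -0.62 (adjusted p = 0.0684) and -0.01, Ramp3 -0.64 (0.0873) and -0.04, and Pfkfb3 0.48 (0.0870) and 0.03. Eif4ebp1 had -0.61 (0.0750) and 0.17, and Bhlhe40 0.64 (0.0586) and 0.25. Irs2 had 0.62 and 0.03, with an adjusted p of 0.130 in running. Robo3 had 0.53 in running (0.0684) and -0.29 in CUS. Hes5, Pde7b and Msln had running levels nearer to control than CUS levels were: the differences from control were 0.14, -0.20 and 0.02 in running and 0.71, -0.66 and 0.69 in CUS, with 1 gene in all called in CUS against control.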

How the data were processed

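RNA of mouse mPFC was measured in 9 libraries. Per the labels' protocols, polyadenylated RNA was selected and nothing marks the strand, so a gene and an antisense or overlapping partner cannot be told apart. The submitters' processing notes name Bowtie2 2.2.5, RSEM 1.2.12, DESeq2 1.4.5 and build mm10, whose roles the notes do not give. FPKM values are what the authors deposited, and a 0 is described only as listed at 0.

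Values were analysed as log2(FPKM + 0.5) with limma 3.58.1 in R 4.3.3, in 1 model of the 9 libraries with an intensity trend, 2-sided. With 3 libraries a group the smallest exact permutation p is 0.1, so the tests rest on variance shared across genes. The members, the 56 gene lists and the naming rule were chosen with earlier results of these data known. The rule names genes under an adjusted p of 0.05, the 15 higher and 15 lower non-overlapping genes with the smallest p, the 8 and 8 with the largest difference, and up to 4 members of each list, smallest p first; the text also names other called members of its lists and members of known role that did not pass. Trends with length and GC of transcripts (GENCODE M21 protein-coding transcripts, 13830 genes) were removed per library as an alternative. Code was tested on simulated data. Coordinates are RefSeq's, GRCm38.p6 (13980 genes matched). Some genes are not reported here.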

Additional observations from a re-analysis of the deposited data

How the results depend on the processing

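The 928 genes at an adjusted p under 0.1 became 0 with no filter on low values, 483 with quantile normalization (225 lower), 597 with median centring (336 lower), 26 in a fit of the 6 libraries alone (22 higher, 4 lower), 11 without the intensity trend (4 and 7), 3631 with library quality weights (1173 and 2458) and 233 with the length and GC trend removed (157 and 76). Rescaling to TPM gave 502 higher and 135 lower. With no filter 3474 genes had an unadjusted limma p under 0.05. At an adjusted p under 0.05 the same settings gave 0 genes with no filter, 3 with TPM, 2 each with quantile normalization, median centring and robust eBayes, 15 with the 6 libraries, 2178 with weights and 5 with the trend removed. Leaving out 1 library gave from 0 to 3092 genes, from 0 to 1007 higher and from 0 to 2085 lower, and from 0 to 1518 under 0.05. With the trend removed and without CUS model replicate 3, an alternative chosen after seeing the data, 27 genes passed under 0.1 (20 higher, 7 lower) and 0 under 0.05. The cause of these moves was not tested. The median of all genes moved by less than 0.1 under every scaling, but with TPM it changed sign, from -0.03 to 0.06. Several list medians given above are no larger than this move. Of 1232 list medians under the alternatives, 88, in 24 of the 56 lists, had the other sign, such as sterol synthesis (0.03) and peptide receptors (0.02) with TPM, neuropeptides (0.03), glutamate receptors (-0.06) and protocadherins (-0.01) with the trend removed, and myelin markers without CUS model replicate 3 (-0.02). Among lists whose running and CUS scores did not overlap, the lysosomal list had 0.0055 with TPM, glycolysis 0.022 with TPM and 0.038 with quantile normalization, and phosphodiesterases, which ranged from -0.011 to 0.053 with 1 library left out, had -0.0027 without CUS model replicate 3 and -0.011 without running model replicate 2. The 136 genes tested under all settings gave 1395 values on the same side of 0.1, 1595 that no longer passed and 1 that newly passed, with 0 changes of sign. Of these genes 135 were chosen among those that passed in the main fit. Some settings, such as leaving out a control, cannot change the difference itself, so the 0 says little about the stability of signs. Read depth is unknown. No paired analysis was possible because the labels give no replicate numbers, and libraries were numbered by order of listing.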

Other observations

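Per2, a clock repressor, had, in running against control libraries, 13.3, 14.6 and 12.4 FPKM against 9.70, 8.22 and 8.07, a log2 difference of 0.61, and it lay at 11.2, 12.3 and 11.2 in CUS libraries. Nuak1, a kinase of axon branching, had 20.9, 22.1 and 21.1 FPKM in running, 15.7, 18.8 and 16.01 in CUS and 15.8, 14.7 and 13.0 in control libraries, with a log2 difference of 0.55 from control and 0.34 from CUS.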
